A study of Mus musculus with 16 samples.

Results

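Chemokines, interleukins, colony-stimulating factors and their receptors were followed in p53−/−; Myc hepatoblasts, a mouse liver progenitor line that lacks the tumor suppressor p53 and overexpresses the oncogene Myc. The genes were chosen by symbol, as the rows starting with Ccl, Cxcl, Ccr, Cxcr, Il or Csf and then a digit with at least 10 counts in total over 16 libraries. This gave 81 genes of the 20444 that were tested, from 148 rows with such a name, of which 67 fell under 10 counts and 36 of these were at 0 in every library. The boundary lay between Ccr9 with 10 counts and Cxcl2 with 9. By their known roles, 37 of the 81 encode secreted ligands, 41 encode receptor chains, Il18bp encodes a soluble binding protein, and Il4i1 and Il4i1b carry an interleukin name but encode an amino acid oxidase. Symbols outside the pattern, such as Cx3cl1, Ackr3, Lif and Osmr, are not members and were counted apart.

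Polyadenylated RNA was sequenced from cells given sorafenib, an oral kinase inhibitor used against hepatocellular carcinoma, or its vehicle DMSO, for 48 hours or for 7 days, with 4 libraries in each of the 4 groups. All 4 groups share the p53 knockout and the Myc overexpression, so the DMSO cells are transformed cells and not normal liver. The study used 1 cultured line, and the labels give no cultures behind the replicate numbers, so the p-values measure the spread between these libraries, which may be technical. Total counts ranged from 16586254 to 30828427 per library, and 1 CPM, the unit of counts scaled by sequencing depth used below, stood for 16.6 to 30.8 counts.

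Chemokines are small secreted proteins that direct the movement of leukocytes through receptors of the G protein-coupled class, here the Ccr and Cxcr genes. Many interleukins and some colony-stimulating factors act on receptors built from a ligand-binding chain and a shared signalling chain, such as Il6st, Il1rap, Il17ra or Il10rb. Hepatocytes are known for responding to interleukins of the IL-6, IL-1 and IL-22 families and for releasing chemokines that draw in monocytes and lymphocytes.

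The markers of the labelled cell type and of other cells were read first. Of 10 hepatoblast, hepatocyte and biliary markers, 8 were tested and 5 were expressed, with Dlk1 at a mean of 1282 CPM and Krt19 at 104 CPM in DMSO at 48 hours, whereas Alb had 3 counts in total and Hnf4a none. The summed level of this list was 1385 to 1439 CPM in DMSO and 487 to 558 CPM in sorafenib at 48 hours, and 728 to 803 and 240.3 to 250.9 CPM at 7 days, a sum that Dlk1 carried. By the test of edgeR described below, 1 of the 8 was higher and 5 lower at 48 hours and 1 and 7 at 7 days, and the one that rose was Sox9, a biliary factor (log2 fold change 1.64 and 1.37). Of 9 leukocyte markers, Adgre1, Tyrobp and Cd3e were at 0 in every library, and Lyz2 had 1 count and Ptprc 5 counts in total. The 2 that were expressed were Cd68 and Cd14, with 1097 and 381 counts in total, and Cd79a and Itgam had 79 and 19. The list summed to 3.22 to 4.68 CPM over all libraries, with 2 of 4 tested genes lower at 48 hours and none called at 7 days. The 7 fibroblast markers were all detected and did not move together: 3 were higher and 3 lower at 48 hours and 2 and 5 at 7 days, with median log2 fold changes of −0.30 and −1.14. Their sum, 1829 to 1933 and 3279 to 3553 CPM in DMSO and sorafenib at 48 hours and 1874 to 1970 and 2117 to 2195 CPM at 7 days, was carried by Col1a1 (log2 fold change 0.95 and 0.31), while Pdgfra fell at both times (−2.11 and −2.26) and Dcn rose and then fell (0.43 and −2.30). The 6 endothelial markers summed to 1.68 to 9.47 CPM, with 2 higher and 1 lower of 5 tested genes at each time. The part of these differences in the values below was not tested, and a changed level in bulk RNA cannot be told apart from a changed share of cells that express the gene. Libraries stood apart in 2 ways. In sorafenib at 48 hours replicate 2, genes from the start of chromosome 15 through chromosome X lay at 0.605 times their level relative to the genes before, while no other library had a step over 0.0918 on the log2 scale. Il33, Il1rap, Il10rb, Csf1r, Csf2ra and Il13ra1 lie in that stretch, and their values without this library stand beside them. The edgeR fit estimates the spread from all libraries together, so leaving this library out also moved adjusted p-values of genes outside the stretch. For Il17re at 7 days the adjusted p went from 0.0544 to 0.0221 at a nearly equal log2 fold change. In 3 DMSO libraries, replicates 2 and 3 at 48 hours and replicate 4 at 7 days, the 6 genes LOC118568312, AY036118, Lars2, LOC118568007, mt-Rnr2 and mt-Rnr1 took 2.36 to 3.46% of the counts, against at most 1.05% in the other libraries. These differences lay in few genes. Between replicates 2 and 4 of DMSO at 7 days, 94.9% of the chi-square came from 10 genes. The median gene of this pair stood at 0.990, within the 0.721 to 1.11 of all pairs in that group. Between replicates 2 and 3 of sorafenib at 48 hours the median gene stood at 4.85. Without replicate 4 of DMSO at 7 days, 20 members were higher and 23 lower at that time.

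A gene was taken as expressed when every library of at least 1 group held 1 CPM or more, with CPM scaled by the TMM factors of edgeR. By this rule 37 of the 81 members were expressed, against a background of 62.6% of all tested genes. They comprised 17 of 37 ligands, 19 of 41 receptor chains and Il18bp, and the kinds of gene differed within both roles. Among the 39 rows named Ccl or Cxcl, 12 were expressed and 12 were at 0 in all libraries. Among the 17 rows named Ccr or Cxcr, none was expressed, 8 reached 10 counts and 5 were at 0 in all libraries. Interleukin genes ran the other way, with 4 of 16 ligand members and 17 of 31 receptor members expressed.

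The expressed chemokine ligands were Cxcl12, Ccl2, Ccl7, Ccl20, Ccl5, Cxcl10, Cxcl14, Cxcl16, Ccl25, Ccl27a, Ccl28 and Cxcl1. The other expressed ligands were Csf1, Il33, Il18, Il16 and Il17d. Expressed receptor chains were Il6st, Il6ra, Il11ra1, Il1r1, Il1rap, Il1rl2, Il17ra, Il17rc, Il17rd, Il22ra1, Il10rb, Il20rb, Il4ra, Il13ra1, Il15ra, Il3ra, Il12rb2, Csf2ra and Csf1r.

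Ligands were set beside their textbook receptors, a pairing written after the levels had been seen and given here as a description. Of 14 expressed ligands with listed receptors, 12 had no listed chain that was expressed, Il33 had 1 of its 2 chains, and only Csf1 had its receptor, Csf1r. Csf1r, also the chain listed for Il34, met the rule in DMSO at 7 days alone. Its level was under 1 CPM in every library of the other groups. Cxcl12 reached 545 CPM in its highest library while its receptor Cxcr4 had 30 counts over all 16 libraries and at most 8 in one. Ccl2 reached 50.8 CPM and its receptor Ccr2 had 1 count in total. The receptors Ccr6 of Ccl20 and Cxcr3 of Cxcl10 had none, and a total of 0 allows an expected total of up to 3 counts by counting error alone. Conversely, of 15 listed ligands that were not expressed, 9 had every listed chain expressed, namely Il34, Il1a, Il1b, Il6, Il11, Il17a, Il17f, Il22 and Il13. Il17a and Il22 had no count in any library, and Il6 had 23 in total, whereas Il6st alone had 88945. Ackr3, a scavenging receptor of Cxcl12 named here after its values were seen, was at means of 11.2 and 4.27 CPM in DMSO and sorafenib at 48 hours and at 12.3 and 1.37 CPM at 7 days.

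**Figure D1:**
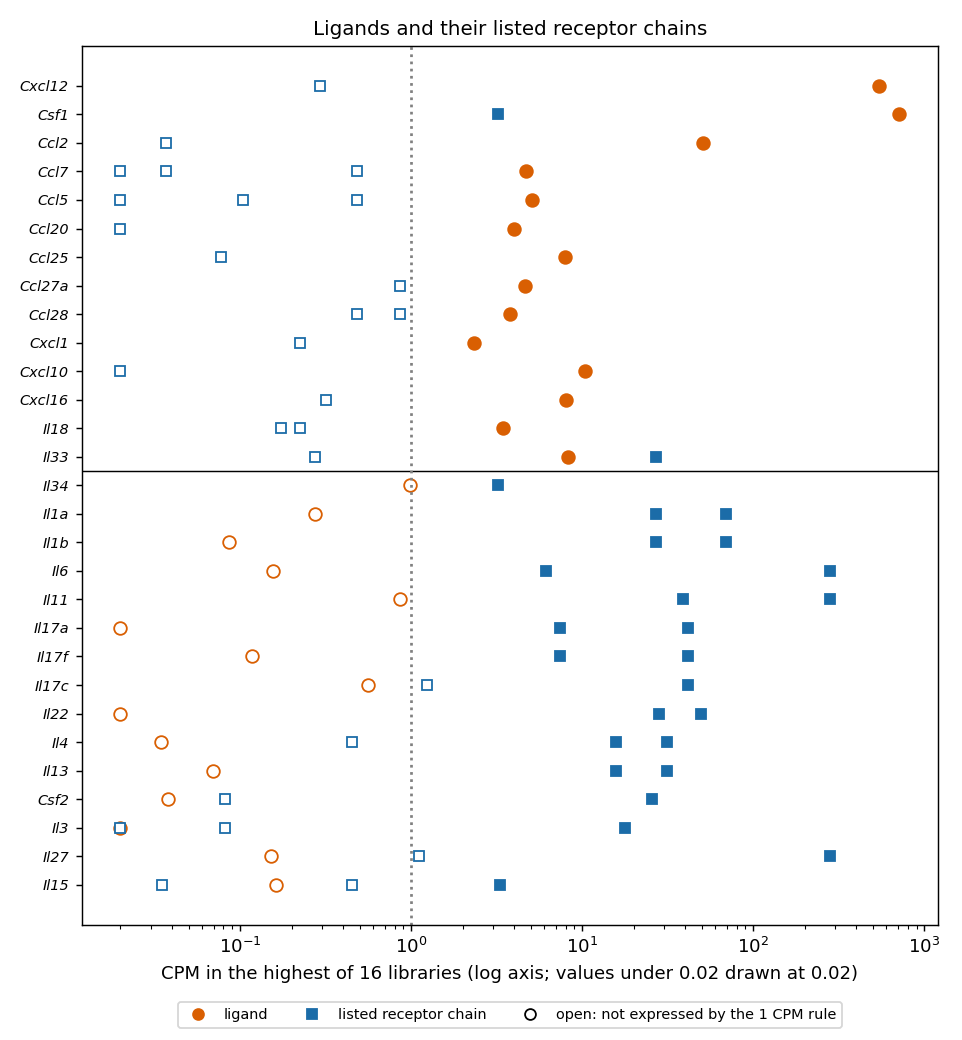
Highest CPM over the 16 libraries (log axis) of each ligand (circles) and of its listed receptor chains (squares), with open symbols for genes that were not expressed by the 1 CPM rule. Above the horizontal line stand the 14 expressed ligands, 12 of them with open receptor symbols alone, and below it the 15 ligands that were not expressed, 9 of them with filled receptor symbols alone.

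Summed over all members of a role, ligand RNA rose from 352.7 ± 13.7 CPM (SD, n = 4) in DMSO to 1004 ± 19.9 in sorafenib at 48 hours, and stood at 919 ± 23.9 in DMSO and 1071 ± 21.8 in sorafenib at 7 days. Receptor RNA moved over a narrower range, at 434 ± 5.67 and 558 ± 10.4 CPM at 48 hours and at 523 ± 9.09 and 528 ± 2.58 CPM at 7 days. The groups did not overlap in the ligand sum at either time, and in the receptor sum they did so at 7 days, with 516 to 536 CPM in DMSO and 525 to 531 CPM in sorafenib. Both sums rest on few genes, since Csf1 and Cxcl12 carried between 85.6 and 95.3% of the ligand CPM of a library and Il6st between 32.2 and 52.9% of the receptor CPM. At 7 days Csf1 was higher and Cxcl12 lower under sorafenib. Chemokine ligands summed to 261 and 512 CPM in DMSO and sorafenib at 48 hours and to 620 and 378 CPM at 7 days. Interleukin ligands summed to 15.9 and 12.2 CPM at 48 hours and to 20.2 and 10.2 CPM at 7 days.

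Per kilobase of the Ensembl canonical transcript, Cxcl12 was the highest ligand in DMSO at 48 hours with 40.6 CPM per kb, ahead of Csf1 with 18.1, and again in DMSO at 7 days with 94.6. Under sorafenib Csf1 was the highest at both times, with 114 and 163 CPM per kb. Ccl2 was the third at 7 days in both treatments, and in DMSO at that time its libraries were not all below those of Csf1. Among receptors, Il22ra1, Il11ra1 and Il6st led in DMSO at 48 hours with 18.2, 16.8 and 16.4 CPM per kb, and the libraries of neighbours in this order overlapped. In the other 3 groups Il6st was the highest receptor in every library, at 30.9, 22.6 and 32.0 CPM per kb.

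To ask how sorafenib changed these genes, the treated and DMSO libraries were compared at each time. At 48 hours 23 members were higher and 17 lower under sorafenib, against 26.9% and 27.7% of all tested genes, at an adjusted p under 0.05 from edgeR's quasi-likelihood test. In all 40 of 81 members were called, and the background was 54.6%. At 7 days 21 were higher and 22 lower, 43 in all, against 28.9%, 27.9% and 56.8%. The treated and control libraries did not overlap in 22 members that were higher and 16 that were lower at 48 hours, and in 19 and 22 at 7 days, against 48.0% and 56.8% of all tested genes. The share of members called, 49.4% and 53.1%, lay near or under that of all genes. Ligands gave 10 higher and 7 lower at 48 hours and 9 and 10 at 7 days, and receptors 12 and 9, then 12 and 11. The median log2 fold change of the 37 ligands was 0.26 at 48 hours and −0.14 at 7 days, that of the 41 receptors 0.14 and −0.31, and that of all tested genes −0.051 and 0.020. Among the 37 expressed members alone, 30 (81.1%) were called at 48 hours and 32 (86.5%) at 7 days, beside 74.7% and 75.2% of all expressed genes. The rule admits a gene through a single group, as it did Ccl5 and Il15ra through sorafenib at 7 days. Shares over expressed genes, here and below, are therefore not independent of the calls.

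The response itself changed between the times in 35 of 81 members, tested as the interaction of treatment and time. Of these, 13 shifted toward higher and 22 toward lower values at 7 days. Over all tested genes 36.8% were called, 15.5% toward higher and 21.3% toward lower values, so the whole table also leaned lower. Of the 17 expressed ligands, 11 shifted lower and 3 higher, and of the 19 expressed receptors 9 and 7, beside 53.5% of all expressed genes called in either direction. The directions were not counted apart for all expressed genes. Called in opposite directions at the 2 times were 6 members, against 4.78% of all tested genes: Cxcl12, Ccl2, Ccl7, Il4ra and Il17rd were higher at 48 hours and lower at 7 days, and Ccl25 the reverse. The call of Il17rd at 48 hours was lost when any 48-hour library other than sorafenib replicate 2 was left out (log2 fold change 0.090 to 0.15, adjusted p from 0.0529 to 0.217), and that of Ccl25 at 48 hours was lost without sorafenib replicate 4 (log2 fold change −0.27, adjusted p = 0.0510).

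**Figure D2:**
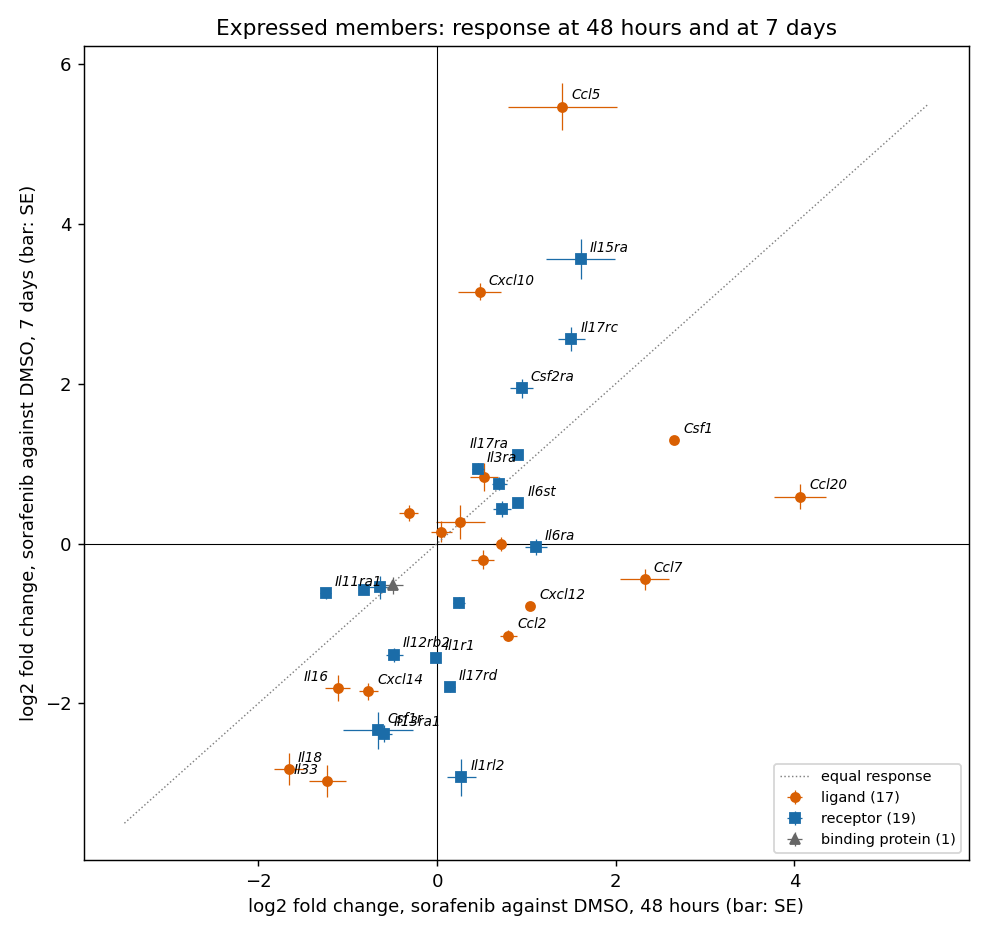
Log2 fold change of sorafenib against DMSO at 48 hours (horizontal) and at 7 days (vertical) for the 37 expressed members, with standard errors as bars, orange circles for ligands, blue squares for receptors and a gray triangle for Il18bp. Il15ra, Il17rc and Csf2ra lie above the dotted line of equal response, while Csf1 and Ccl20 lie to its right and Cxcl12, Ccl2 and Ccl7 to the right and below 0 on the vertical axis.

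Among the ligands, Csf1 (chr3:107648364-107667806), the growth factor of macrophages, rose most in absolute terms at 48 hours. The DMSO libraries at 48 hours held 71.7, 74.8, 79.6 and 77.7 CPM and the sorafenib libraries 472, 504, 479 and 460.2 CPM. After 7 days Csf1 stood at 259, 290.5, 276 and 285 CPM in DMSO and at 712, 672, 672 and 676 CPM in sorafenib. All treated libraries were above all DMSO libraries of their time, and the 7-day DMSO cells were also far above the 48-hour DMSO cells. The rise was 6.31-fold at 48 hours (log2 fold change 2.66 ± 0.043, SE, adjusted p = 3.96e-20) and 2.46-fold at 7 days (1.30 ± 0.04, adjusted p = 3.60e-16), and the response was smaller at 7 days by 2.56-fold (adjusted p = 3.48e-13). Csf1r, its receptor (chromosome 18), was at 0.467, 0.587, 0.609 and 0.275 CPM in DMSO and 0.670, 0.180, 0.151 and 0.271 in sorafenib at 48 hours, groups that overlapped, and at 2.24, 3.24, 2.88 and 2.73 in DMSO and 0.582, 0.614, 0.452 and 0.548 in sorafenib at 7 days, groups that did not. At 7 days Csf1r was 5.05-fold lower (adjusted p = 3.27e-08). At 48 hours its log2 fold change was −0.66 ± 0.39 (adjusted p = 0.164), or −0.52 without replicate 2 of sorafenib, and −1.28 with an adjusted p of 0.00831 without replicate 1. Exons of Csf1r overlap those of Hmgxb3 on the other strand, and the strand setting of the counting is not given in the sources used here.

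Cxcl12 (chr6:117144945-117158328), which attracts lymphocytes and progenitor cells, changed in opposite directions at the 2 times. Its CPM was 216, 228, 242 and 235 in DMSO and 464, 469.6, 483 and 483 in sorafenib at 48 hours. At 7 days the order turned, with 536, 545, 519.9 and 545 in DMSO and 312, 314, 313 and 305 in sorafenib. No libraries overlapped between any 2 of the 4 groups, and the highest group was the 7-day DMSO cells. The treated cells were 2.06-fold higher at 48 hours (log2 fold change 1.04 ± 0.033, adjusted p = 4.36e-16) and 1.73-fold lower at 7 days (−0.79 ± 0.032, adjusted p = 3.16e-14). The DMSO cells themselves rose 2.33-fold from 48 hours to 7 days (adjusted p = 4.27e-16), and the sorafenib cells fell 1.53-fold (adjusted p = 8.11e-12).

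Ccl2 and Ccl7, neighbouring genes on chromosome 11 that encode monocyte-attracting chemokines, followed the same course at lower levels. Ccl2 held 4.94, 4.76, 4.35 and 4.26 CPM in DMSO and 8.09, 8.54, 7.27 and 8.13 in sorafenib at 48 hours, and 43.8, 50.5, 48.2 and 50.8 in DMSO and 24.7, 21.3, 19.9 and 21.6 in sorafenib at 7 days. Ccl7 held 0.233, 0.380, 0.203 and 0.309 CPM in DMSO and 1.28, 1.32, 1.51 and 1.63 in sorafenib at 48 hours, and 3.48, 4.46, 4.71 and 4.28 in DMSO and 2.69, 3.91, 3.34 and 2.39 in sorafenib at 7 days. Its DMSO libraries at 48 hours had only 5 to 11 counts each. For Ccl2 the treated libraries were all above the controls at 48 hours and all below them at 7 days, while for Ccl7 the groups separated at 48 hours and overlapped at 7 days. At 48 hours Ccl2 was 1.74-fold and Ccl7 5.02-fold higher (adjusted p = 4.28e-07 and 3.70e-07). By 7 days both were lower, by 2.22-fold and 1.36-fold (adjusted p = 3.44e-12 and 0.00821). Between the DMSO groups, Ccl2 was 10.6-fold and Ccl7 14.7-fold higher at 7 days than at 48 hours, larger than their differences between treatments at either time.

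Ccl20 (chr1:83094487-83096888), a chemokine for lymphocytes and dendritic cells, had the largest fold increase at 48 hours among the 37 expressed members. In DMSO at 48 hours it was near the limit of detection, with 0.156, 0.138, 0.162 and 0.241 CPM, or 4 to 7 counts a library, and in sorafenib it held 2.51, 2.59, 3.64 and 3.07 CPM. The 7-day libraries held 1.89, 3.51, 2.82 and 1.92 CPM in DMSO and 3.94, 3.81, 3.72 and 3.99 CPM in sorafenib. The treated libraries were above the controls without overlap at both times, and the 7-day controls overlapped the 48-hour treated cells. The increase was 16.7-fold at 48 hours (log2 fold change 4.06 ± 0.29, adjusted p = 2.12e-10) and 1.503-fold at 7 days (adjusted p = 0.00345).

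Ccl5 and Cxcl10, which attract T cells and, in the case of Cxcl10, are known as interferon-inducible, were instead high in the 7-day treated cells alone. Ccl5 held 0, 0.138, 0.122 and 0.0688 CPM in DMSO and 0.0558, 0.180, 0.454 and 0.136 in sorafenib at 48 hours, and 0.129, 0.0682, 0.137 and 0.0738 in DMSO and 4.03, 5.11, 4.87 and 4.66 in sorafenib at 7 days. Cxcl10 held 0.350, 0.276, 0.366 and 0.516 CPM in DMSO and 0.502, 0.541, 0.644 and 0.407 in sorafenib at 48 hours, and 1.03, 1.30, 0.996 and 1.14 in DMSO and 9.71, 10.1, 9.64 and 10.4 in sorafenib at 7 days. For both genes the 4 treated libraries at 7 days stood above all 12 others. Ccl5 was 44.2-fold and Cxcl10 8.88-fold higher at 7 days (adjusted p = 2.77e-12 and 1.79e-15), and the difference from the 48-hour response was called for both (adjusted p = 0.00116 and 2.44e-07). At 48 hours their log2 fold changes were 1.40 ± 0.61 and 0.48 ± 0.24 (adjusted p = 0.0593 and 0.184). At 0 to 12 counts a library, Ccl5 was called higher at 48 hours without DMSO replicate 2 or without replicate 1, 2 or 4 of sorafenib (log2 fold change 1.48 to 1.78), whereas without replicate 3 of sorafenib, which held the 12 counts, the value was 0.52 (adjusted p = 0.559).

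**Figure D3:**
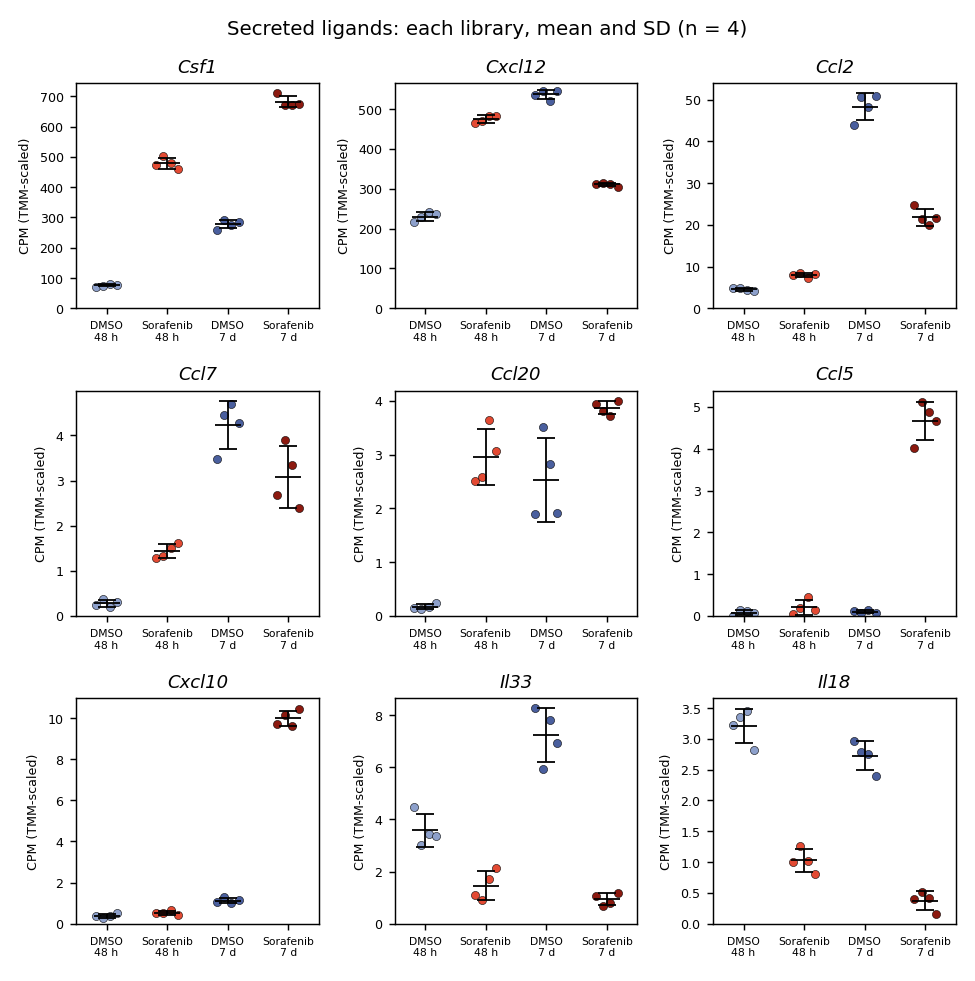
CPM (linear axis) of 9 ligands in each of the 16 libraries, as points, with the mean and SD of each group of 4. Csf1 and Ccl20 are higher in sorafenib at both times, Cxcl12, Ccl2 and Ccl7 are higher at 48 hours and lower at 7 days, Ccl5 and Cxcl10 stand out in the 7-day treated libraries, and Il33 and Il18 are lower at both times.

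These 5 chemokine genes are shown by the 250 bases before their start, because they moved in 3 different time courses. The bases were read from the GRCm39 genome at the start of the Ensembl canonical transcript and run 5′ to 3′ on the strand of the gene. Capitals mark the letters of 3 motifs searched on both strands, the kB motif of NF-kB (GGG and TTTCC with any 2 bases between), the interferon-stimulated response element (GAAA and GAAA with any 2 bases between) and the AP-1 motif (TGANTCA), none of which overlap here.
Ccl20 (chr1:83094237-83094486, + strand): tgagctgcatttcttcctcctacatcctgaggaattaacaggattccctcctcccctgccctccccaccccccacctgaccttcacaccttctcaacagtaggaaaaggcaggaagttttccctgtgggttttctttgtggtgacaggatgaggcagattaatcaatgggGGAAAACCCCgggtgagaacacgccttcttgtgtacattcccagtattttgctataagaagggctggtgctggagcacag
Ccl2 (chr11:81926147-81926396, + strand): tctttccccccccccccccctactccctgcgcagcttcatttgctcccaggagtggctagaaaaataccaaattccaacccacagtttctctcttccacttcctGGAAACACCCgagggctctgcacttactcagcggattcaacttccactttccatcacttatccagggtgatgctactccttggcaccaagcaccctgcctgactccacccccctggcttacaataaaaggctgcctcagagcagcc
Ccl7 (chr11:81936282-81936531, + strand): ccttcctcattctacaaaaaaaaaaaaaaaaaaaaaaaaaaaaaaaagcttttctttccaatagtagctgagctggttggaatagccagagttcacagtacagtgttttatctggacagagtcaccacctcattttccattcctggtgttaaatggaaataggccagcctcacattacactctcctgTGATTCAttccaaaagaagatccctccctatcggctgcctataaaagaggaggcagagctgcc
Ccl5 (chr11:83421346-83421595, - strand): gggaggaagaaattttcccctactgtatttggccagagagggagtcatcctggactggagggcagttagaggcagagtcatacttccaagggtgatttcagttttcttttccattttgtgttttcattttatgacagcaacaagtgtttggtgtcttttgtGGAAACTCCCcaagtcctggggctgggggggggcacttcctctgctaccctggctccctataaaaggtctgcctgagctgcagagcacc
Cxcl10 (chr5:92496749-92496998, - strand): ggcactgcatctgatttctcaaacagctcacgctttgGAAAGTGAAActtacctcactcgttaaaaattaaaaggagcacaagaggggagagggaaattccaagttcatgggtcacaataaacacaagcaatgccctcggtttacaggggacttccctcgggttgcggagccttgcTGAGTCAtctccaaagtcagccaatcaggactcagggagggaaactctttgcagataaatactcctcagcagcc
The kB letters were found in the promoters of Ccl20, Ccl2 and Ccl5, those of AP-1 in Ccl7 and Cxcl10, and those of the interferon element in Cxcl10. Over the promoters of 14626 tested protein-coding genes, the shares holding a match were 1.49% for kB, 2.92% for the interferon element and 4.90% for AP-1. Over the 80 members with a position, 13 held the kB letters, 3 those of the interferon element and 13 those of AP-1. The 13 with kB comprised 9 ligands (Ccl2, Ccl20, Ccl5, Ccl9, Csf1, Cxcl1, Cxcl5, Il18 and Il6) and 4 receptors (Ccr3, Cxcr5, Il17rc and Il23r). The genes with kB letters did not share a direction, since Ccl20 and Csf1 rose at both times and Il18 fell at both. A match describes these letters in this window and not a bound site. Other forms of the motifs were not searched, so a window without capitals for a motif may still hold one.

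The other expressed chemokine ligands, given by the range over the 4 libraries of a group, followed no common direction. Cxcl14, a chemokine of epithelia, fell from 6.18–7.01 to 3.34–4.75 CPM at 48 hours and from 7.86–9.58 to 2.00–2.64 CPM at 7 days, without overlap (1.70-fold and 3.61-fold, adjusted p = 2.82e-06 and 5.93e-12). Ccl28, a mucosal chemokine, rose 1.44-fold and 1.79-fold (adjusted p = 0.00652 and 0.000362), with libraries that overlapped at 48 hours (1.59 to 2.85 against 2.57 to 3.79 CPM) and not at 7 days (1.12 to 1.33 against 1.97 to 2.37 CPM). Cxcl16, a membrane-bound chemokine, was 1.42-fold higher at 48 hours (adjusted p = 0.00217), and at 7 days its log2 fold change was −0.20 ± 0.12 (adjusted p = 0.171), or −0.33 with an adjusted p of 0.0244 without sorafenib replicate 4. Ccl25, a chemokine of thymus and gut, moved from 5.56–6.34 to 4.02–6.08 CPM at 48 hours, with overlap, and from 5.02–6.24 to 7.03–7.98 CPM at 7 days, without it (log2 fold change −0.32 ± 0.11 and 0.38 ± 0.10, adjusted p = 0.0194 and 0.00293). Ccl27a, a skin chemokine, and Cxcl1, which attracts neutrophils, were called at neither time, with log2 fold changes of 0.048 ± 0.12 and 0.26 ± 0.27 at 48 hours (adjusted p = 0.766 and 0.447) and of 0.15 ± 0.13 and 0.27 ± 0.21 at 7 days (adjusted p = 0.341 and 0.294). The 48-hour sign turned for Ccl27a without DMSO replicate 4 or sorafenib replicate 2 or 4 (−0.056, −0.0031 and −0.027) and for Cxcl1 without sorafenib replicate 4 (−0.029). Exons of Cxcl16, Ccl25, Cxcl10 and Ccl27a overlap exons of genes on the other strand, and Ccl27a also has the near-identical copy Ccl27b. Part of their counts may belong to those genes. For Cxcl16 the overlap was 4345 of 5123 exon bases summed over Med11 and Zmynd15, and at most 43.2% with either alone.

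The expressed interleukins were mostly lower under sorafenib. Il33, an alarmin of the IL-1 family, held 4.47, 3.00, 3.45 and 3.37 CPM in DMSO and 1.12, 0.902, 1.70 and 2.12 in sorafenib at 48 hours, and 8.26, 5.93, 7.80 and 6.94 in DMSO and 1.07, 0.679, 0.800 and 1.17 in sorafenib at 7 days. Il18, a cytokine of the same family that drives interferon-gamma production, held 3.23, 3.35, 3.45 and 2.82 CPM in DMSO and 1.00, 1.26, 1.02 and 0.813 in sorafenib at 48 hours, and 2.97, 2.79, 2.75 and 2.40 in DMSO and 0.403, 0.517, 0.418 and 0.157 in sorafenib at 7 days. In both genes every treated library was below every control library of its time, and the lowest group was the 7-day treated cells. Il33 was 2.34-fold and 7.85-fold lower at the 2 times (log2 fold change −1.23 ± 0.21 and −2.97 ± 0.20, adjusted p = 4.34e-05 and 6.76e-11), with −1.08 at 48 hours without replicate 2 of sorafenib. Il18 was 3.15-fold and 7.08-fold lower (adjusted p = 4.86e-08 and 1.66e-10). Il18bp, which neutralizes IL-18, fell by 1.41-fold and 1.44-fold (adjusted p = 0.00124 and 0.000369), and its exons overlap those of Numa1.

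Il16, a chemoattractant that binds CD4, moved from 3.49–3.92 to 1.40–2.08 CPM at 48 hours and from 2.67–3.43 to 0.592–1.16 CPM at 7 days, 2.16-fold and 3.504-fold lower without overlap (adjusted p = 1.18e-06 and 6.09e-09). Of its 8548 exon bases, 1815, summed over both genes, overlap Stard5 and 2310044K18Rik on the other strand. Il17d, a divergent member of the IL-17 family, was the one expressed interleukin that rose, 1.64-fold at 48 hours (3.70 to 4.16 against 6.10 to 7.04 CPM, adjusted p = 1.16e-06). At 7 days the Il17d groups overlapped, at 5.33 to 5.998 and 4.97 to 6.53 CPM (log2 fold change −0.0086 ± 0.085, adjusted p = 0.945), and the sign of this value turned under total-count scaling, under either other filter and without DMSO or sorafenib replicate 2 or 4.

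Receptor chains of the IL-6 family were led by Il6st, which encodes gp130, the shared signalling chain of this family. Il6st held 142, 147, 143 and 139 CPM in DMSO and 264, 269, 268 and 270.3 in sorafenib at 48 hours, and 189.7, 202, 192 and 199 in DMSO and 274, 278, 281 and 278 in sorafenib at 7 days. The treated libraries were above the controls without overlap at both times and almost level with each other. The increase was 1.88-fold and 1.42-fold (log2 fold change 0.91 ± 0.029 and 0.50 ± 0.029, adjusted p = 6.40e-16 and 6.00e-12), with a smaller response at 7 days (adjusted p = 1.15e-07). Its ligand-binding chains followed other courses. Il6ra, which binds IL-6, was at 2.02, 2.17, 1.99 and 1.55 CPM in DMSO and 4.35, 4.39, 3.98 and 4.02 in sorafenib at 48 hours, and at 4.98 to 6.13 and 4.74 to 6.04 CPM at 7 days, so that it separated at the first time and overlapped at the second. Il6ra was 2.16-fold higher at 48 hours (adjusted p = 2.36e-07), and at 7 days its log2 fold change was −0.041 ± 0.099 (adjusted p = 0.752), or 0.026 without DMSO replicate 2 and 0.0072 without sorafenib replicate 4. Il11ra1, which binds IL-11, fell without overlap from 31.7–38.7 to 13.7–15.5 CPM and from 13.7–14.8 to 8.34–10.2 CPM (2.38-fold and 1.54-fold, adjusted p = 1.96e-12 and 3.01e-07), with the near-identical copy Il11ra2 as a limit. Of the partner chains outside the naming rule, Lifr was at means of 74.8 and 42.6 CPM at 48 hours and 115 and 30.9 at 7 days, lower under sorafenib at both times (log2 fold change −0.80 and −1.90, adjusted p = 6.88e-07 and 1.59e-12). Osmr was at 3.45 and 27.5 CPM and then 17.8 and 38.2, higher at both (log2 fold change 3.00 and 1.10, adjusted p = 5.97e-15 and 7.18e-10). Both lie in the lowered stretch of chromosomes, and without replicate 2 of sorafenib their 48-hour values were −0.67 and 3.12.

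The IL-17 receptor chains divided. Il17ra, the chain shared by this family, held 13.8, 14.4, 13.3 and 13.8 CPM in DMSO and 24.8, 27.3, 27.0 and 24.5 in sorafenib at 48 hours, and 17.9, 18.6, 17.9 and 18.2 in DMSO and 41.4, 38.0, 37.9 and 39.2 in sorafenib at 7 days. Il17rc, its partner for IL-17A and IL-17F, held 1.48, 1.86, 1.54 and 1.58 CPM in DMSO and 4.58, 4.93, 4.85 and 4.11 in sorafenib at 48 hours, and 0.903, 0.716, 1.41 and 1.48 in DMSO and 6.58, 6.79, 7.45 and 5.87 in sorafenib at 7 days. Both chains were higher in all treated libraries, by 1.87-fold and 2.15-fold for Il17ra (adjusted p = 4.36e-12 and 4.91e-14) and by 2.84-fold and 5.90-fold for Il17rc (adjusted p = 5.01e-08 and 1.02e-11). Of the exon bases of Il17rc, 16.4% overlap Gm57002 on the other strand. Il17rd, known also as Sef and as a brake on growth factor signalling, held 44.5, 45.5, 45.9 and 45.3 CPM in DMSO and 47.8, 51.8, 48.4 and 52.1 in sorafenib at 48 hours, and 61.7, 62.0, 61.0 and 58.3 in DMSO and 14.6, 17.9, 18.8 and 18.4 in sorafenib at 7 days. Its treated libraries lay just above the controls at 48 hours and far below them at 7 days, where it was 3.47-fold lower (log2 fold change −1.80 ± 0.057, adjusted p = 5.44e-16). The 48-hour difference was 0.14 ± 0.054 on the log2 scale (adjusted p = 0.0314).

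**Figure D4:**
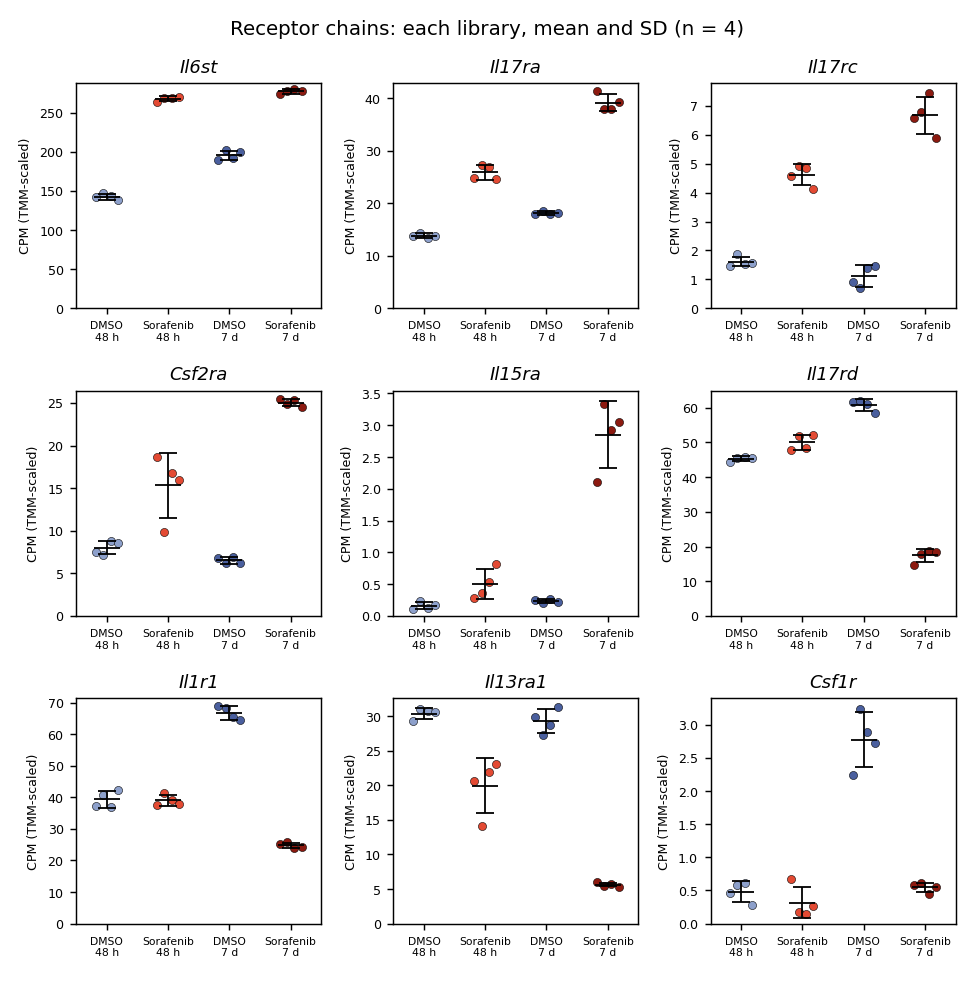
CPM (linear axis) of 9 receptor chains in each of the 16 libraries, as points, with the mean and SD of each group of 4. Il6st, Il17ra, Il17rc, Csf2ra and Il15ra are higher in sorafenib at both times, and Il17rd, Il1r1, Il13ra1 and Csf1r are lower in sorafenib than in DMSO at 7 days.

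In the IL-1 receptor family, Il1r1, the receptor of IL-1, was called at 7 days and not at 48 hours. It held 37.2, 40.9, 36.9 and 42.5 CPM in DMSO and 37.6, 41.4, 39.2 and 37.9 in sorafenib at 48 hours, and 69.0, 68.2, 65.5 and 64.5 in DMSO and 25.2, 25.7, 24.1 and 24.3 in sorafenib at 7 days. The 48-hour groups overlapped (log2 fold change −0.015 ± 0.049, adjusted p = 0.832), and the 7-day groups were apart by 2.69-fold (−1.43 ± 0.049, adjusted p = 2.04e-15). Il1rl2, the receptor of the IL-36 cytokines, was likewise called at 7 days alone, with 1.44 to 2.89 and 2.57 to 3.13 CPM at 48 hours and 2.28, 2.59, 2.44 and 2.40 against 0.224, 0.355, 0.418 and 0.235 CPM at 7 days. This was the largest fall among the expressed receptors at 7 days, 7.61-fold (adjusted p = 1.24e-09), and at 48 hours the log2 fold change was 0.27 ± 0.16 (adjusted p = 0.167). Il1rap, the signalling chain both share, went the other way, from 11.5–13.5 to 16.9–23.7 CPM at 48 hours and from 13.8–16.4 to 25.6–26.8 CPM at 7 days. Il1rap was 1.62-fold and 1.68-fold higher without overlap (log2 fold change 0.70 ± 0.088 and 0.75 ± 0.083, adjusted p = 9.52e-07 and 1.48e-07), with 0.77 at 48 hours without replicate 2 of sorafenib.

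Il4ra and Il13ra1, which together bind IL-4 and IL-13, were both lower at 7 days. Il13ra1 held 29.3, 31.0, 30.7 and 30.5 CPM in DMSO and 20.7, 14.1, 22.0 and 23.0 in sorafenib at 48 hours, and 29.9, 27.3, 28.7 and 31.3 in DMSO and 5.95, 5.49, 5.74 and 5.36 in sorafenib at 7 days. Every treated library was below every control, with replicate 2 of the 48-hour treated group lowest in that group, and the 7-day fall was 5.20-fold (adjusted p = 1.14e-13). At 48 hours the log2 fold change was −0.59 ± 0.092 (adjusted p = 1.43e-05), and −0.47 without that library. Il4ra moved from 10.5–11.9 to 11.9–14.3 CPM at 48 hours, 1.19-fold higher (adjusted p = 0.00418), and from 14.2–15.7 to 8.28–9.43 CPM at 7 days, 1.67-fold lower (adjusted p = 8.96e-09).

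The IL-22 receptor is built from Il22ra1 and Il10rb, and these 2 chains moved apart. Il22ra1 fell from 46.2–48.8 to 26.7–27.2 CPM at 48 hours and from 44.8–49.5 to 30.2–32.5 CPM at 7 days (1.77-fold and 1.496-fold, adjusted p = 1.40e-12 and 1.81e-10). Il10rb, a chain shared with the IL-10 receptor, rose from 14.4–15.6 to 17.7–28.2 CPM and from 13.8–16.2 to 19.5–21.8 CPM (log2 fold change 0.73 ± 0.099 and 0.44 ± 0.098, adjusted p = 2.64e-06 and 0.000754). Without replicate 2 of sorafenib the 48-hour value of Il10rb was 0.85, and the difference between its 2 responses, not called with all libraries (−0.29, adjusted p = 0.112), was called (−0.41, adjusted p = 6.60e-05). Il20rb, a chain for IL-20 and related cytokines, fell 1.56-fold and 1.46-fold (adjusted p = 0.00354 and 0.00322). Il12rb2, a chain of the IL-12 receptor, was 1.40-fold and 2.62-fold lower (adjusted p = 0.000203 and 3.28e-11), but 40.0% of its exon bases overlap Serbp1, and 27.9% of those of Il10rb overlap Gm21970.

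Binding chains for IL-15, GM-CSF and IL-3 rose at both times. Il15ra held 0.117, 0.242, 0.122 and 0.172 CPM in DMSO and 0.279, 0.361, 0.530 and 0.813 in sorafenib at 48 hours, and 0.258, 0.204, 0.275 and 0.221 in DMSO and 2.10, 3.33, 2.92 and 3.05 in sorafenib at 7 days. Csf2ra, the GM-CSF receptor chain, held 7.54, 7.14, 8.81 and 8.60 CPM in DMSO and 18.6, 9.87, 16.8 and 16 in sorafenib at 48 hours, and 6.75, 6.17, 6.97 and 6.16 in DMSO and 25.4, 24.9, 25.3 and 24.5 in sorafenib at 7 days. In both genes the treated libraries were above the controls without overlap, and their distance was greater at 7 days. Il15ra was 3.04-fold and 11.8-fold higher (adjusted p = 0.00140 and 1.38e-10), and Csf2ra 1.93-fold and 3.85-fold (adjusted p = 2.09e-06 and 2.81e-11), with a log2 fold change at 48 hours of 0.95 ± 0.13, or 1.09 without replicate 2 of sorafenib. At 48 hours every library held under 1 CPM of Il15ra, so its fold change at that time rests on few counts. Il3ra rose 1.38-fold and 1.91-fold (12.0 to 13.6 against 16.5 to 17.8 CPM and 7.57 to 8.73 against 14.5 to 17.3 CPM, adjusted p = 5.74e-06 and 3.35e-10). Of the signalling chains that these receptors use, Csf2rb had 2 counts in total, Csf2rb2 none and Il2rb 1, and Il2rg had 117, with at most 0.452 CPM in a library.

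Of the 44 members that were not expressed, 15 were called at one of the times with a change of at least 1 on the log2 scale in either direction, against 33.4% of all tested genes that were not expressed, and they are given by their summed counts over the 4 libraries of a group. Cxcl13, a B cell chemokine, fell from 12 to 0 counts at 48 hours and from 44 to 2 at 7 days. Cxcl5, which attracts neutrophils, fell from 18 to 2 and from 17 to 4, and Ccr3, the one chemokine receptor lower at both times, from 23 to 1 and from 40 to 6. Ccl9 rose from 0 to 7 and from 8 to 29, and Il27ra, a receptor chain for IL-27, from 16 to 45 and from 14 to 107. These 5 were called at both times. Only at 48 hours were Ccl17 (1 against 14) and Il4i1b (12 against 23) called higher, and Ccr7 (37 against 9), Il18r1 (14 against 2) and Il17re (83 against 5) called lower. At 7 days alone the calls were higher for Il11 (22 against 86), Il23a (3 against 16), Il18rap (1 against 15) and Il23r (4 against 16) and lower for Csf3 (47 against 16). Leaving out 1 library ended several of these calls. This held at 48 hours for Il18r1 (DMSO replicate 1 or 2, sorafenib replicate 1 or 4, log2 fold change −1.86 to −2.14) and Il4i1b (DMSO 2 or 4, sorafenib 1 or 4, 1.08 to 1.22). At 7 days it held for Il23a (DMSO 1, 2 or 3, sorafenib 1 or 3, 1.77 to 2.37), Il23r (DMSO 1 or 3, sorafenib 1, 2 or 4, 1.498 to 1.97), Ccl9 (DMSO 2 or sorafenib 1, 1.56 to 1.60) and Cxcl5 (DMSO 2 or sorafenib 3, −1.49 to −1.53). Conversely, at 7 days Il18r1 was called lower without DMSO 1 or sorafenib 4 (−2.61 and −3.81), Ccr7 without sorafenib 1 (−1.87), Il17re without any of 6 libraries of either time (−2.02 to −3.23), and Il4i1b was called higher without DMSO 1 or 3 or sorafenib 1 (1.03 to 1.10). The other 29 members had 10 to 222 counts in total, from Ccr9 to Il34, and of these Il12rb1, a chain of the IL-12 receptor, was called, with a log2 fold change of 0.96 ± 0.38 at 7 days (adjusted p = 0.0389).

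The 4 groups also differ by time in culture, and this was compared within each treatment. Any other differences between the 48-hour and 7-day libraries cannot be told apart from time. In DMSO, 28 members were higher and 8 lower at 7 days than at 48 hours, 36 in all, against 23.9%, 25.5% and 49.4% of all tested genes. By role these were 17 higher and 3 lower of 37 ligands, and 11 and 5 of 41 receptors. Median log2 changes were 0.46 for ligands, 0.064 for receptors and −0.011 for all tested genes. In sorafenib 23 members were higher and 15 lower, 38 in all, against 17.5%, 22.3% and 39.7%, with 11 and 8 among the ligands and 12 and 7 among the receptors. The gene with the largest change over time among the expressed members in DMSO was Ccl7, at 14.7-fold, followed by Ccl20 at 14.3-fold and Ccl2 at 10.6-fold. In sorafenib it was Ccl5, at 20.2-fold, with Cxcl10 at 18.7-fold (adjusted p = 1.37e-10 and 3.45e-15). The comparisons at 7 days and over time share libraries, so the values are not independent of each other.

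Genes of the same pathways outside the naming rule were counted from fixed lists, beside 74.7% and 75.2% of all expressed genes called at 48 hours and 7 days and 54.6% and 56.8% of all tested genes. Several of these genes lie in the stretch lowered in replicate 2 of the 48-hour sorafenib group, and their counts and values without that library, an alternative chosen after seeing the data, are given too. Of 30 related ligands and receptors, such as Lif, Kit and Ackr3, 21 were tested, and 8 were higher and 6 lower at 48 hours and 9 and 6 at 7 days. Without that library the 48-hour counts were 10 and 7. Their most abundant members besides Lifr and Osmr were Kitl, the ligand of Kit, with log2 fold changes of 0.20 and −0.078 (adjusted p = 0.000263 and 0.0917), and Kit with 0.57 and 0.79 (adjusted p = 9.12e-09 and 2.84e-10). Of 24 tested genes of the JAK, STAT and SOCS list, 8 were higher and 7 lower at 48 hours and 11 and 8 at 7 days, and without that library 8 and 6 at 48 hours. The phosphatase Ptpn11 and the kinase Jak1 rose at both times (log2 fold changes of 0.69 and 0.36, and of 0.35 and 0.25), Socs5, a suppressor of cytokine signalling, fell (−1.59 and −1.69, with −1.48 at 48 hours without that library). Pias2 was called at neither time (−0.097 and 0.038, adjusted p = 0.356 and 0.731), and its 48-hour value turned to 0.024 without that library (adjusted p = 0.544). Of 26 tested genes of NF-kB and IL-1 signalling, 15 were higher and 4 lower at 48 hours and 18 and 5 at 7 days, with median log2 fold changes of 0.32 and 0.30 beside −0.051 and 0.020 for all tested genes. In this list 10 genes lie in the lowered stretch, and without that library 17 were higher and 6 lower at 48 hours, with a median of 0.36. Among its most abundant genes the adaptor Tab2 rose at both times (0.36 and 0.20), Nfkb1 rose at 7 days (0.12) and the kinase Map3k7 fell at 7 days (−0.27). The kinase Irak1 rose at 7 days (0.40), and at 48 hours its value was 0.16 (adjusted p = 0.111) with all libraries and 0.29 without that library, where it was called (adjusted p = 8.75e-11).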

How the data were processed

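Per the labels, 16 libraries of p53−/−; Myc hepatoblasts were made with a stranded mRNA kit, and the submitters' processing notes name STAR 2.7.1a, featureCounts 2.0.6 and GRCm39. The authors deposited whole-number counts per gene for 40840 genes, without normalization, filter or pooling, and the strand setting and annotation are not given in the sources used here. The 20396 genes under 10 counts in total were removed. In R 4.3.3, edgeR 4.0.16 fitted the quasi-likelihood model with TMM factors, 1 coefficient for each of 4 groups and no block, and Benjamini-Hochberg adjustment over 20444 genes, with calls at FDR under 0.05. CPM were scaled by TMM. The fit was tested on simulated data. Replicates differed by more than counting error (chi-square per gene of at least 1.49). Positions, transcript lengths and promoters came from GENCODE vM39 on GRCm39 (80 of 81 members matched by symbol).

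Members and lists were chosen with earlier results of these data known. Named by rule were the 37 expressed members, lower ones called with a change of at least 1 on the log2 scale, and up to 4 abundant genes of each list. Other genes, such as Ackr3, Il12rb1, Alb, Hnf4a, further leukocyte markers and receptors of the listed pairs, were named outside that rule. Alternatives were DESeq2 1.42.0, its size factors or total counts only for scaling, other filters on low counts, a fold threshold, a fit within each time, replicate numbers as a block, and each library left out.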

Additional observations from a re-analysis of the deposited data

Results flagged for a closer look

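In 10 of 208 groups of 4 libraries, 1 library lay far from the other 3 by Dixon's test, and chance alone flags about 1 in 20 groups. Csf1 stood at 712 CPM in replicate 1 of the 7-day sorafenib group, where the nearest other library had 676, and Ccl25 at 7.98 CPM in replicate 4 of that group against 7.17. Il16 was lowest at 3.49 CPM in replicate 3 of the 48-hour DMSO group against 3.89, and Cxcl16 at 5.68 CPM in replicate 1 of the 7-day DMSO group against 6.63. The other 6 are single libraries above 0 in groups otherwise at 0: Ccl17 at 0.0344 CPM in DMSO and Il18rap at 0.0379, Il23r at 0.0452 and Ccr3 at 0.0602 CPM in sorafenib at 48 hours, Il18rap at 0.0343 CPM in DMSO at 7 days and Il18r1 at 0.0391 CPM in sorafenib at 7 days.

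For 34 named members the response to sorafenib differed between 7 days and 48 hours in the interaction test of edgeR, with values below given as the 7-day minus the 48-hour log2 fold change. Among ligands the difference was negative for Ccl17 (−3.78), Ccl20 (−3.48), Ccl7 (−2.77), Ccl2 (−1.95), Cxcl12 (−1.83), Il33 (−1.75), Csf1 (−1.36), Il18 (−1.17), Cxcl14 (−1.08), Il17d (−0.72), Cxcl16 (−0.71) and Il16 (−0.70). It was positive for Ccl5 (4.06), Il23a (3.51), Cxcl10 (2.67), Il11 (1.34) and Ccl25 (0.70). Among receptors it was negative for Il1rl2 (−3.20), Il17rd (−1.94), Il13ra1 (−1.79), Csf1r (−1.68), Il1r1 (−1.41), Il6ra (−1.15), Il4ra (−0.99), Il12rb2 (−0.91) and Il6st (−0.41). Positive values were found for Il18rap (5.23), Il15ra (1.96), Il17rc (1.06), Csf2ra (0.997), Il11ra1 (0.62), Il3ra (0.47), Il22ra1 (0.24) and Il17ra (0.20).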

How the results depend on the processing

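With a log2 change of at least 1 in either direction required, 11 members were higher and 10 lower at 48 hours, 13 higher at 7 days, 23 differed between the responses, and 18 and 17 differed by time in DMSO and in sorafenib. With a mean of at least 10 counts required, 41 members were tested and 11 were lower at 48 hours, since fewer genes remained. Leaving out each library gave 21 to 24 higher and 16 to 17 lower at 48 hours, 18 to 21 higher and 21 to 25 lower at 7 days, 31 to 36 that differed between the responses, and 33 to 38 and 31 to 39 by time in DMSO and sorafenib. Same-numbered libraries did not deviate together (mean r = −0.00825 at 48 hours and 0.072 at 7 days over 10660 genes), and with the replicate number as a block the counts were 22 and 16, 17 and 23, 31, 34 and 33. Among named members, values that turned sign were uncalled, and the cause was not tested: Ccl27a at 48 hours (−0.024 with total counts, −0.056 without 1 library), Cxcl1 at 48 hours (−0.029 without 1 library), Il1r1 at 48 hours (0.025 without a filter), Ccl17 at 7 days (0.098 without 1 library), Il6ra at 7 days (up to 0.026) and Csf3 at 48 hours (up to 0.097), each without 1 of 2 libraries, and Il17d at 7 days (0.0147, 0.0145 and 0.0104 with total counts, no filter and the stricter filter). The 48-hour call of Il17rd was lost with DESeq2 size factors (0.13), total counts (0.072), the stricter filter (0.12) and the block (0.14). DESeq2 left 100 named values on their side of the threshold, with 2 calls lost and 2 gained, and the block lost 6 and gained 2. Expressed members numbered 40 at 0.5 CPM and 37 at 2 CPM. Total counts moved the median of all genes to −0.12 at 48 hours.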
